A study of Mus musculus with 20 samples.

Results

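Keratins are the filament proteins of epithelia. A type I and a type II keratin pair into intermediate filaments, and each layer of skin, hair or gland uses its own pairs. Keratin-associated proteins (Krtap genes) are small proteins rich in cysteine or in glycine and tyrosine that embed the keratin filaments of the hair shaft. Neurons and glia build their filaments from other proteins, so most of these genes are known from skin, hair and other epithelia rather than from brain. All genes whose symbol is Krt or Krtap followed by a digit were taken, and each was followed through every probe that carries its RefSeq accession. They came to 104 genes, 53 keratins and 51 Krtap genes, of 20968 gene symbols on the array. They were measured by 126 of 55681 probes, 64 for keratins and 62 for Krtap genes. RefSeq lists 111 such mouse genes, and the other 7 had no probe matched here.

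Brain RNA of 20 male C57BL/6J mice was hybridized to 1-colour Agilent arrays, with 5 mice in each of 4 groups. Tat- mice carried the Tet-binding protein under the GFAP promoter, which is active in astrocytes, and Tat+ mice carried in addition the transgene that puts HIV-1 Tat under a Tet-responsive promoter. Every mouse, controls included, received doxycycline at 100 mg/kg, which switches Tat on only in Tat+ mice, and either methamphetamine (Meth) at 2 mg/kg or 0.9% saline (Sal) for 7 days. Groups are named by transgene and injection, so that Tat-/Sal stands for mice without the Tat transgene that were given saline. The labels give the left hemisphere of perfused brains, an age of 6 to 7 weeks and 24 h after the last injection, whereas the study's methods describe older mice, the caudate putamen and a Meth challenge of all mice before harvest. All 9 striatal neuron markers with a probe, and all astrocyte and oligodendrocyte markers, were well above background on every array.

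The 3 slides did not hold the groups evenly. Slide 1 held all 5 Tat-/Meth arrays and nothing else, slide 2 held 5 Tat-/Sal and 3 Tat+/Meth arrays, and slide 3 held 2 Tat+/Meth and 5 Tat+/Sal arrays. No other group shares slide 1, so for any difference that involves the Tat-/Meth mice, group and slide cannot be told apart. The bright corner control spots, which do not depend on the sample, read 14.7 to 15.1 (log2) on slide 1 and 16.8 to 17.4 on the others. Within slide 1, Tat-/Meth replicate 5 stood apart. On that array 70.9% of all probes were well above background, and 22 of the 126 keratin and Krtap probes, 18 of them for keratins, were well above background there and on no other Tat-/Meth array. Results below are on the log2 scale of the processed signal after scaling the arrays by their 75th percentiles. The signals of different probes do not rank genes by their amount of RNA, because probes bind with different strength.

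Most keratin and Krtap probes gave no steady signal in these brains, but a minority gave a strong one. Of the 126 probes, 30 were well above background on all 20 arrays, 25 on none and 71 on some. The 30 probes stood for 13 keratin and 12 Krtap genes. In percent, 23.8% of the keratin and Krtap probes were well above background on every array, against 49.1% of all probes and 66% of those with a gene symbol. A probe was tested when at least 1 group mean reached 6, which 43 probes of 36 genes did (19 keratin and 24 Krtap probes). The 83 probes below that level had means over all arrays between 2.87 and 5.68, and nothing about a change is said of them unless stated.

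Of the 5 simple epithelial keratins, which line ducts and gut, 4 were below the level for testing and Krt18 was above it. Krt7 and Krt19 were well above background on 1 array each, Tat-/Meth replicate 5 in both cases, where they read 7.25 and 6.74. Krt20 was above background on that array alone as well, at 6.60. Krt8 was above background on 5 of the 20 arrays. Its partner Krt18 was above background on all 20, with means of 7.92 ± 0.45 in Tat-/Sal and 8.13 ± 0.49 in Tat-/Meth (SD, n = 5 here and in all group means below). The Tat+ mice gave 8.13 ± 0.56 with saline and 7.68 ± 0.59 with Meth. The group ranges of Krt18 overlapped.

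Keratins of the epidermis gave mixed readings. Krt14, the type I keratin of the basal layer, was dim, with means of 6.14 ± 0.17 in Tat-/Sal and 5.63 ± 0.76 in Tat-/Meth. Krt15, also a basal keratin, and Krt17 of hair follicle and injured skin stayed below the level for testing. Krt10, which replaces Krt14 when cells leave the basal layer, had a clear signal through both of its probes. The brighter read 12.59 ± 0.12 in Tat-/Sal and 12.87 ± 0.08 in Tat-/Meth, and in Tat+ mice 12.61 ± 0.09 with saline and 12.56 ± 0.17 with Meth. Krt9, the keratin of palm and sole skin, read between 13.36 and 14.37 on every array. The probe labelled Krt222, a type I keratin-like gene, read between 15.26 and 15.85, and its other probe between 7.80 and 8.80. The group means of Krt9 stayed within 0.1 of each other.

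Hair keratins were mostly dark. Of the 11 probes for type I hair keratins, 1 was well above background on all arrays, for Krt31 of the hair cortex, with means between 7.93 and 8.27 in the 4 groups. Of the 5 probes for type II hair keratins, 1 was above background throughout, for Krt86, also of the cortex. The type I keratins of the inner root sheath, the layer that moulds the growing hair, had 5 probes, none of them bright enough to test. Among its type II keratins Krt71 was above background on 1 of 20 arrays, while Krt73 was above background on all 20.

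The Krtap genes were put into 3 classes, named for what their proteins are rich in. The class was taken from the number in the gene name, and the make-up of the proteins was not checked. The high sulfur class had 20 probes, of which 2 were above background on all arrays and 5 were tested. The ultrahigh sulfur class had 23 probes, of which 8 were above background on all arrays and 13 were tested. The high glycine-tyrosine class had 19 probes, of which 5 were above background on all arrays and 6 were tested. Krtap4-8 of the ultrahigh sulfur class read between 10.72 and 11.18 on all 20 arrays, a range of less than 0.5. Krtap20-2 of the glycine-tyrosine class read between 11.26 and 12.36 through its brightest probe. The groups overlapped for both. A second Krtap20-2 probe was lower in Tat-/Meth than in Tat- mice given saline without overlap, with a log2 fold change of -0.43 (standard error 0.11, adjusted p = 0.0036, limma), under the limit on fold.

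In Tat-/Meth against Tat-/Sal, 19 of the 43 tested probes were called lower and none higher (limma, adjusted p under 0.05 over all 31516 probes tested and a change above 2-fold). These were 12 of 24 Krtap probes and 7 of 19 keratin probes, and they stand for 10 Krtap and 7 keratin genes. Over all probes tested 11.6% were called, 10.9% lower and 0.708% higher, and of those with a gene symbol, as all keratin and Krtap probes have, 5.61% were called lower. The median log2 fold change was -0.90 over the Krtap probes, -0.063 over the keratin probes and 0.10 over all probes. At an adjusted p under 0.05 without the limit on fold, 23 of the 43 were lower and 4 higher, where 22.2% of all probes were lower and 28.1% higher. At an unadjusted p under 0.05 there were 29 of the 43, where 56.4% of all probes were, and no further probe passed the limit on fold. In bulk RNA fewer cells of a type and less RNA per cell cannot be told apart.

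The largest differences were in the Krtap genes. Krtap10-10, a high sulfur gene, read 15.25, 15.30, 15.39, 15.29 and 15.57 in the 5 Tat-/Sal mice and 10.52, 10.57, 10.68, 10.57 and 10.96 in the 5 Tat-/Meth mice. In Tat+/Sal it read 15.46, 15.20, 15.33, 16.40 and 15.99, and in Tat+/Meth 15.59, 15.46, 15.54, 16.05 and 15.71. All 5 Tat-/Meth values lay over 4 units below all 15 others, and the other groups overlapped. The log2 fold change in Tat-/Meth against Tat-/Sal was -4.70 (standard error 0.18), a 26-fold lower signal with an adjusted p of 1.28e-12 in limma. RefSeq places Krtap10-10 inside the gene Tspear on chromosome 10, along with Krtap10-4, whose difference of -0.54 (adjusted p = 0.0156, limma) did not pass the limit on fold.

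Krtap19-5, a glycine-tyrosine gene that RefSeq also lists as Krtap8-2, had the largest difference of all members. Its probe A_55_P2065754 read 13.31, 13.43, 13.53, 13.54 and 13.58 in Tat-/Sal and 5.92, 7.24, 5.97, 5.77 and 5.70 in Tat-/Meth, where the last array was not well above background. In Tat+/Sal it read 13.52, 13.48, 13.32, 14.53 and 14.25, and in Tat+/Meth 12.93, 13.46, 11.96, 14.05 and 13.86. The Tat-/Meth values did not meet those of any other group, and the Tat+/Meth values spread over 2.09 units. The log2 fold change was -7.36 (standard error 0.35, adjusted p = 1.64e-11, limma), which is 164-fold. Its second probe was lower by 3.37-fold only, with a log2 fold change of -1.75 (standard error 0.21, adjusted p = 1.64e-06, limma).

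Krtap5-5, an ultrahigh sulfur gene, was called lower in the same comparison through 2 of its 4 probes. Probe A_66_P101703 read 13.84, 13.76, 13.91, 13.76 and 13.87 in Tat-/Sal against 8.92, 9.42, 9.12, 9.18 and 9.43 in Tat-/Meth. The log2 fold change was -4.62 (standard error 0.25, adjusted p = 6.70e-11, limma), or 24.5-fold. Probe A_55_P2060011 gave -2.14 (standard error 0.12, adjusted p = 9.69e-11, limma), while probe A_55_P2098150, above background on all 20 arrays as well, gave -0.26 (standard error 0.15, adjusted p = 0.165, limma). The last probe was too dim to test. It was above background on 4 of 5 Tat-/Sal arrays and on no Tat-/Meth array, at least 1.13-fold lower in Tat-/Meth. Of the other Krtap5 genes, which lie beside it on chromosome 7, Krtap5-2 and Krtap5-4 were called lower by 2.17-fold and 2.18-fold, and Krtap5-1 (-0.80) and Krtap5-3 (-0.24) were not called.

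Krtap4-1, of the ultrahigh sulfur class, was seen in 3 groups. It read 7.96, 7.40, 7.61, 7.66 and 7.13 in Tat-/Sal, and in Tat-/Meth it was not well above background on any array. The signal in Tat-/Sal was at least 4.86-fold higher than the background limit in Tat-/Meth (adjusted p = 3.06e-10, limma). Such a bound was also needed for Krtap26-1, of the high sulfur class, at least 2.26-fold higher in Tat-/Sal (adjusted p = 0.00077, limma). The bound sets the Tat-/Sal mean against the dimmest signal that still counts as well above background on each Tat-/Meth array.

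Krtap31-1 was lower by 4.33-fold, Krtap1-4 by 2.66-fold and Krtap16-3 by 2.01-fold. The last was the called probe nearest to the limit of 2-fold, and the ranges of its groups overlapped. On the other side of the limit stood Krtap9-1, which was 1.76-fold higher in Tat-/Meth, Krtap5-1, 1.74-fold lower, and the keratin Krt1, 1.70-fold higher. Among the 43 probes 3 were higher in Tat-/Meth with no overlap of the groups, for Krtap9-1, Krt1 and Krt10, and 19 were lower with no overlap. Over all probes tested 20.3% were higher and 16.2% lower without overlap.

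The promoters of the genes with the largest differences that RefSeq gives are shown with that of Krtap20-2, which was not called, so that the region around their start sites can be compared. Each is 300 bases of GRCm38.p6 on the strand of the gene, from 250 bases before the start to 50 after it, and capitals mark TATAAA, the core of the TATA box.
Krtap19-5 (chr16:88896400-88896699, minus strand): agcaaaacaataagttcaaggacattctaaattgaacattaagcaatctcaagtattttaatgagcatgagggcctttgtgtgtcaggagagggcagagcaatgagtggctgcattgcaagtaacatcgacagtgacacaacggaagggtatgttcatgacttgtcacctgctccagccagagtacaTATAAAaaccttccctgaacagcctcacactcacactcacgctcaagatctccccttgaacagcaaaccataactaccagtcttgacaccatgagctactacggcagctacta
Krtap5-5 (chr7:142229922-142230221, minus strand): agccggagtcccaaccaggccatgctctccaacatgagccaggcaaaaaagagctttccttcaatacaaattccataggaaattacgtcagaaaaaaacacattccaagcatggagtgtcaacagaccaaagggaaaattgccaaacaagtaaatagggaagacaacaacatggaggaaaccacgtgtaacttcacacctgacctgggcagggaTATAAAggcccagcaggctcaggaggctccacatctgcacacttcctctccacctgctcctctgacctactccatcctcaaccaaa
Krtap4-1 (chr11:99628190-99628489, minus strand): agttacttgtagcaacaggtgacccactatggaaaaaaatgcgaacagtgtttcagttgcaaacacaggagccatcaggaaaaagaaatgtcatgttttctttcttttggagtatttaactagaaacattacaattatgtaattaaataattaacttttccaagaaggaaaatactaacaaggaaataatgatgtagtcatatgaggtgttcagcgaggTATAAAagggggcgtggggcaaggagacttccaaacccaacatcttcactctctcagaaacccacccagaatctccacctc
Krtap20-2 (chr16:89205611-89205910, plus strand): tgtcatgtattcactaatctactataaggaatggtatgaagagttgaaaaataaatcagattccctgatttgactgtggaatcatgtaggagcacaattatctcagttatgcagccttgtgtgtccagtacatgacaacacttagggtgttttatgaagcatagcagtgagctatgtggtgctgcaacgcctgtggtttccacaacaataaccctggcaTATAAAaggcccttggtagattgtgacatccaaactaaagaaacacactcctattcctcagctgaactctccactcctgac

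All 4 promoters hold the motif, 63 bases before the start in Krtap19-5, 36 in Krtap5-5, 31 in Krtap4-1 and 31 in Krtap20-2. TATAAA was searched on both strands of all 32851 promoters in the RefSeq table, where 13.6% hold it. It was found in 38 of 46 Krtap promoters (82.6%) and in 19 of 37 keratin promoters (51.4%). Among Krtap genes it was in all 9 promoters of called genes and in 6 of 8 promoters of genes tested but not called. Among keratins it was in 1 of 4 and 4 of 9 respectively. On the strand of the gene, with its first base 40 to 20 bases before the start, it stood in 58.7% of Krtap, 35.1% of keratin and 1.99% of all promoters. At that position it stood in 7 of 9 promoters of called Krtap genes and in 3 of 8 of those tested but not called. For keratins it stood there in 1 of 4 and 3 of 9 respectively. Counted anywhere in the promoter, the motif was common in Krtap promoters whether or not the gene was called. Whether called and uncalled genes differ in the motif was not tested.

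**Figure D1:**
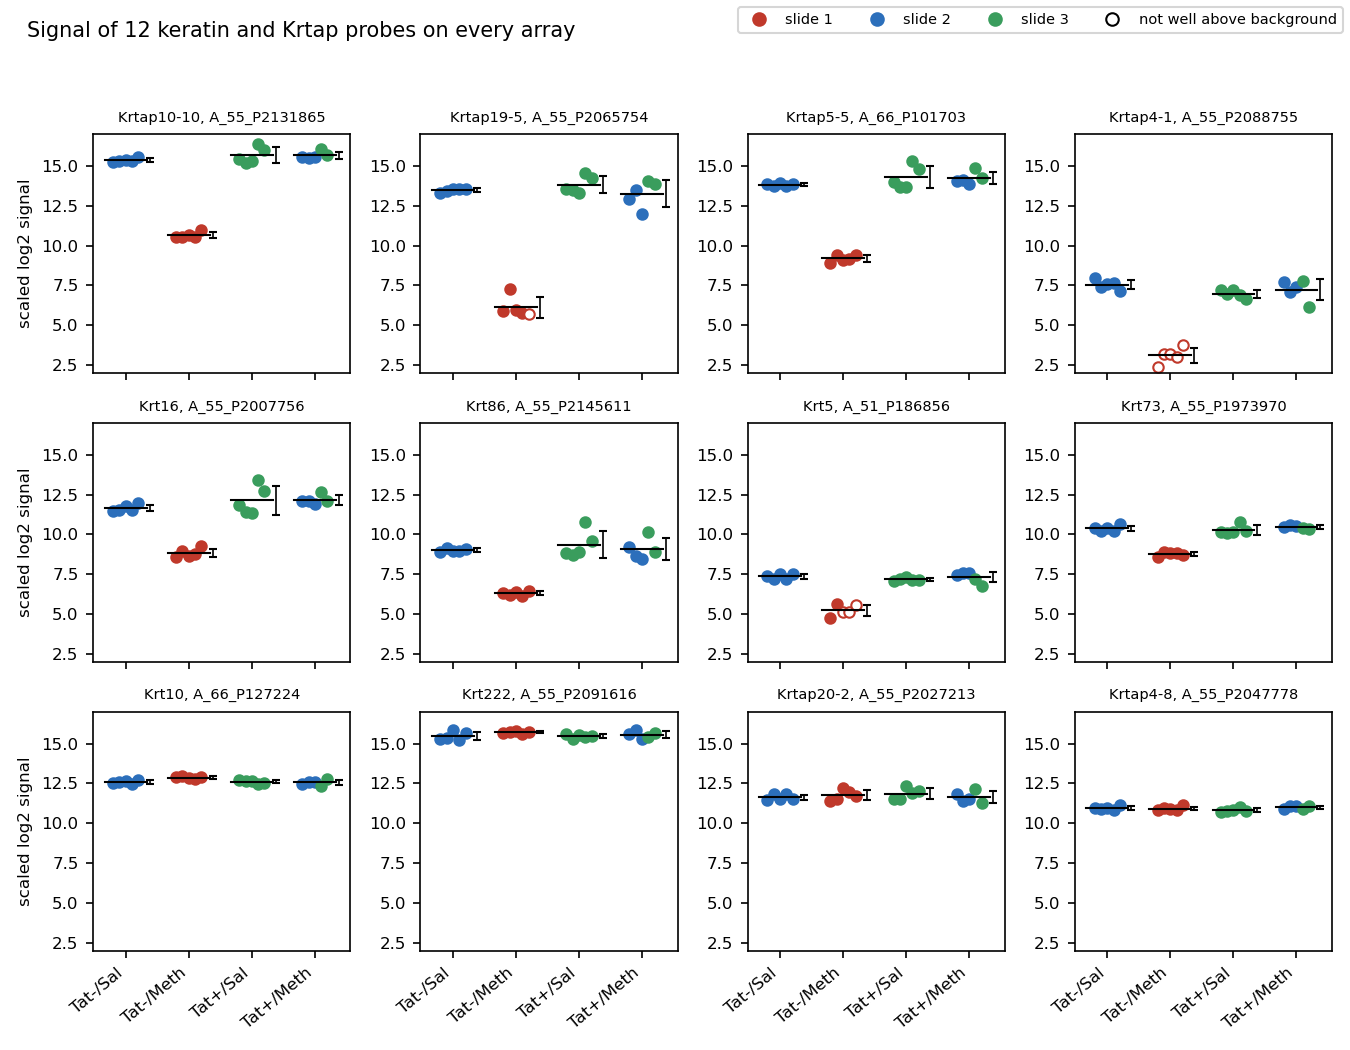
Scaled log2 signal of 12 keratin and Krtap probes on each of the 20 arrays, by group. Points are arrays coloured by slide and open where the probe was not well above background, horizontal lines are group means and bars are SD. In the upper and middle rows the slide 1 arrays (Tat-/Meth) lie below all others, as for Krtap10-10 at 10.52 to 10.96, and in the lower row the group means lie close together, at 12.56 to 12.87 for Krt10.

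In the same comparison 7 keratin genes were called lower, 6 of them type II. Krt16, a type I keratin that skin makes when injured, read 11.50, 11.55, 11.79, 11.50 and 11.95 in Tat-/Sal and 8.61, 8.97, 8.64, 8.75 and 9.25 in Tat-/Meth. It read 11.83, 11.41, 11.34, 13.41 and 12.74 in Tat+/Sal and 12.10, 12.09, 11.88, 12.68 and 12.08 in Tat+/Meth. All Tat-/Meth values lay over 2 units below all others. The log2 fold change was -2.81 (standard error 0.30, adjusted p = 4.31e-07, limma), or 7.04-fold.

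Krt86 of the hair cortex read 8.90, 9.17, 8.97, 8.93 and 9.08 in Tat-/Sal and 6.35, 6.21, 6.36, 6.15 and 6.47 in Tat-/Meth, with a log2 fold change of -2.70 (standard error 0.33, adjusted p = 2.08e-06, limma). Krt5, the type II keratin of the basal epidermis, read between 7.20 and 7.50 in Tat-/Sal and 4.74, 5.64, 5.13, 5.11 and 5.56 in Tat-/Meth, where 2 of 5 arrays were well above background. Its log2 fold change was -2.13 (standard error 0.16, adjusted p = 3.99e-09, limma). Neither gene's Tat-/Meth values met those of another group. Krt14, which pairs with Krt5 in skin, had a log2 fold change of -0.51 (standard error 0.25, adjusted p = 0.0957, limma).

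Krt73 of the inner root sheath was lower by 3.05-fold, Krt80 by 2.98-fold, Krt79 by 2.25-fold and Krt2, a keratin of the upper epidermis, by 2.22-fold. The values of Krt2 overlapped between the groups, since Tat-/Meth replicate 5 read 7.84 and Tat-/Sal spanned 6.94 to 7.97. The keratin probes that were not called included those of Krt10, Krt9, Krt12, Krt18, Krt31 and Krt222, with log2 fold changes between -0.063 and 0.34. Among the genes followed one by one under other settings, normexp background correction lost the calls for Krt2, Krt5 and Krt79. It also lost those for Krtap5-2, Krtap5-4, Krtap16-3 and Krtap31-1. Krtap1-4 and Krtap26-1 were not followed in this way, so whether their calls held is not stated. Krt1, the partner of Krt10 in the upper epidermis, was higher by 0.77 (standard error 0.14, adjusted p = 0.000174, limma), under the limit on fold.

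**Figure D2:**
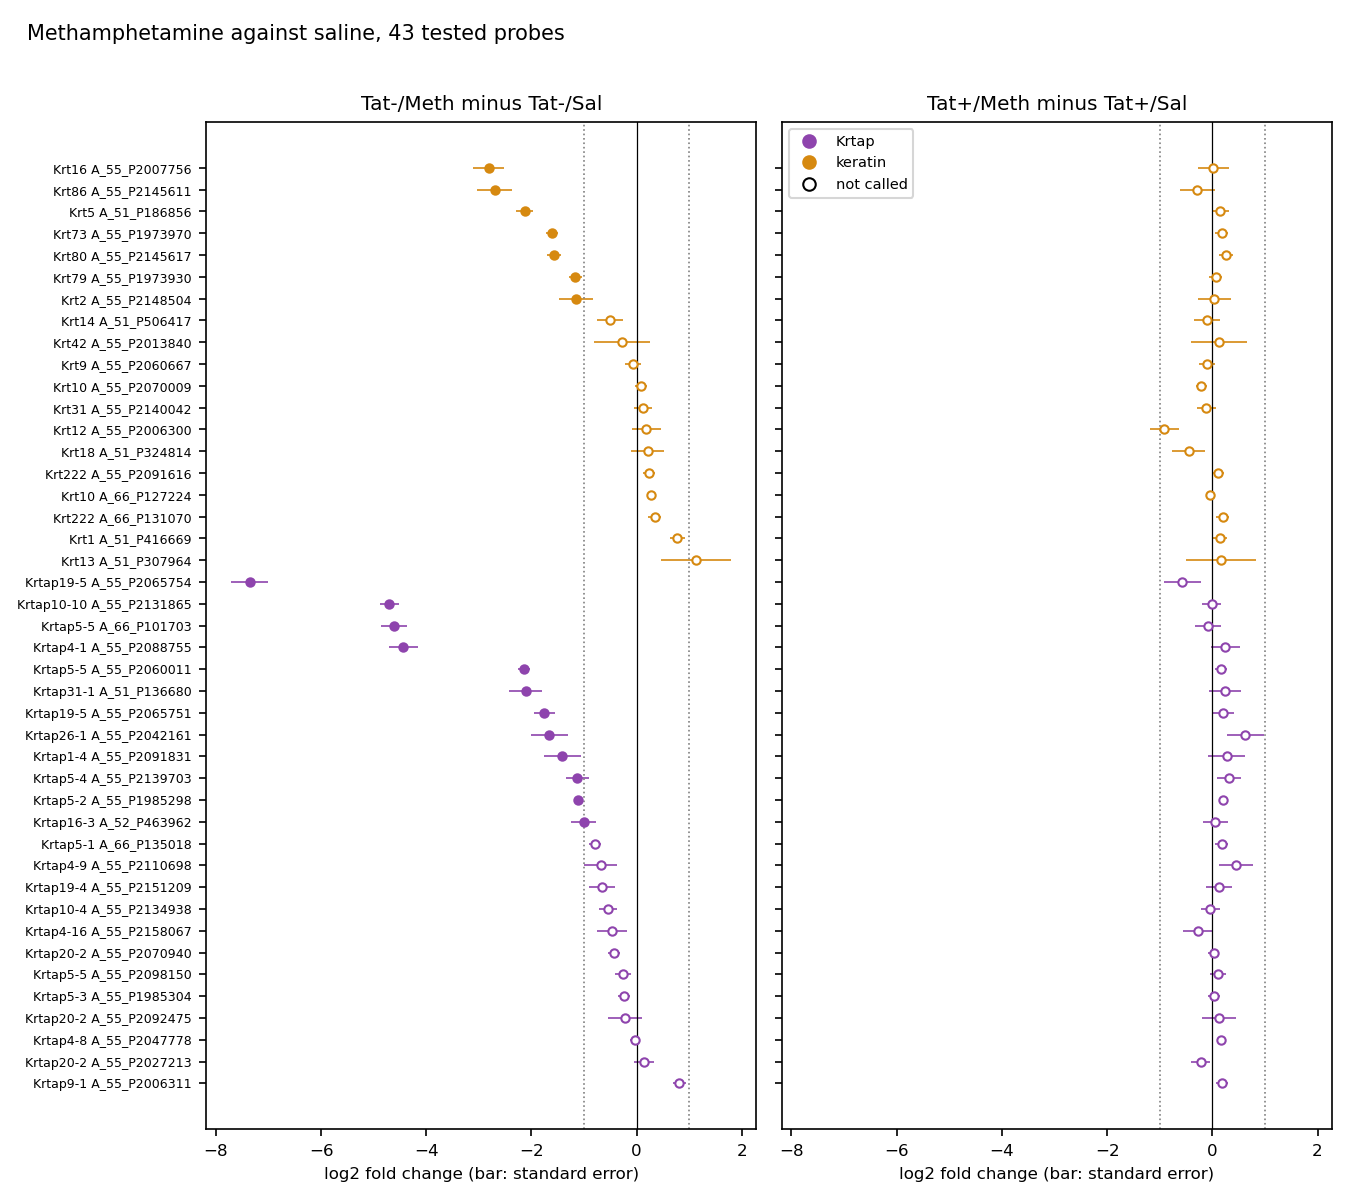
Log2 fold change of Meth against Sal for the 43 tested probes, in Tat- mice on the left and in Tat+ mice on the right, with standard errors and dotted lines at 2-fold. Filled points were called; 19 on the left reach from -1.01 for Krtap16-3 to -7.36 for Krtap19-5, and none on the right was called.

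Probes of the same gene did not always tell the same story. Of the 104 genes 18 had more than 1 probe, and in 13 of them the probes' mean signals in Tat-/Sal lay more than 2 units apart. In 4 genes (Krt12, Krt2, Krtap20-2 and Krtap5-2) at least 1 probe was above background on all 20 arrays and another on none. Krt12, the keratin of the cornea, read 10.38 ± 0.29 in Tat-/Sal through 1 probe and 2.54 ± 0.52 through the other. Krtap20-2 read 11.63 ± 0.17, 9.34 ± 0.12, 6.32 ± 0.07 and 2.95 ± 0.91 through its 4 probes. The log2 fold change in Tat-/Meth against Tat-/Sal differed by more than 2 between tested probes of Krtap19-5 and Krtap5-5. For Krt5 and Krt6b the size of the gap cannot be read, since 1 probe of each was above background on no Tat-/Sal array. That Krt5 probe was above background on 1 of the 20 arrays. The means of the 2 Krt6b probes went opposite ways, as given below, and both were too dim to test. A probe that differed between the groups was thus not always matched by the other probes of its gene, and which probe reads the keratin transcript was not tested. Krtap genes of a class are also close copies of one another, and whether a probe reads more than 1 of them was not tested.

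Krt6b, a keratin of injured skin, had 1 probe that was above background in Tat-/Meth mice alone. Its probe A_51_P126275 read 2.35, 7.37, 8.29, 5.42 and 6.54 in Tat-/Meth, where 4 of 5 arrays were well above background, and was above background on none of the 15 other arrays. Its other probe read 5.28 ± 0.29 in Tat-/Meth and 5.85 ± 0.68 in Tat-/Sal. The first probe's Tat-/Meth mean was at least 2.84-fold above the background limit in Tat-/Sal. It was not tested, because that mean of 5.99 fell just short of 6, and with dimmer probes admitted it was called higher (adjusted p = 0.0024, limma). Other probes too dim to test went either way. Krtap31-2 was above background on 5 Tat-/Sal arrays and on no Tat-/Meth array, at least 1.45-fold lower in Tat-/Meth. Krtap9-3 was above background on 3 Tat-/Meth arrays and on no Tat-/Sal array, at least 1.69-fold higher in Tat-/Meth.

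**Figure D3:**
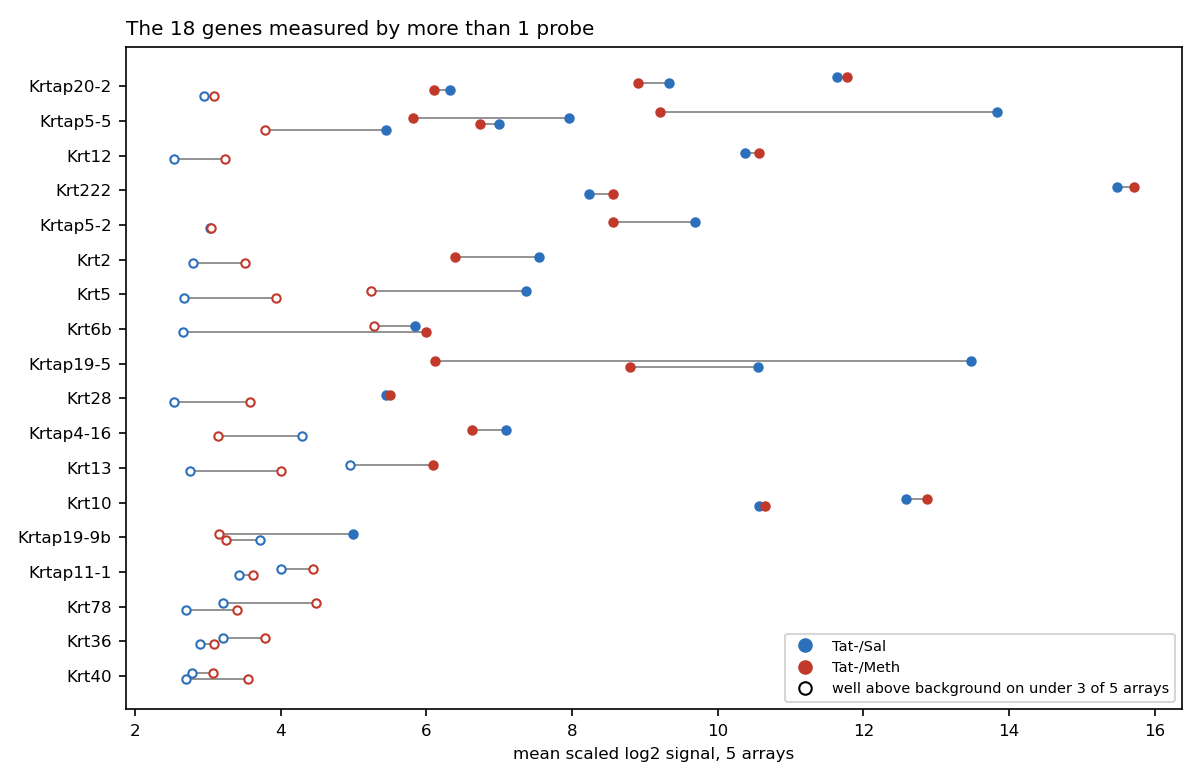
Mean scaled log2 signal in Tat-/Sal and Tat-/Meth (5 arrays each) for every probe of the 18 genes with more than 1 probe, a line joining the 2 means of a probe. Open points were well above background on under 3 of 5 arrays. The 4 probes of Krtap20-2 span 2.95 to 11.63 in Tat-/Sal.

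Tat+/Meth against Tat-/Meth gives the difference with Tat among mice that had Meth, and uses the same Tat-/Meth arrays. In it 19 probes were called higher, 12 Krtap and 7 keratin, and none lower, where over all probes 12% were called, 11.3% higher and 0.711% lower. Krtap10-10 was higher by 32.2-fold, Krtap19-5 by 140-fold and 3.97-fold through its 2 probes, and Krt16 by 10-fold. For Krtap4-1 the bound was at least 3.85-fold. Of the probes called in the 2 comparisons 18 were shared, with Krtap16-3 called in the first alone and Krtap4-9 (2.16-fold) in the second alone. The shared Tat-/Meth arrays enter both.

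In Tat+ mice Meth made no difference that passed. In Tat+/Meth against Tat+/Sal none of the 43 probes was called by limma, nor by the methods' t-test before or after adjustment, and 0% of all probes were called. At an unadjusted p under 0.05 there were 3 probes, Krt12 (-0.91), Krtap5-2 (0.21) and Krtap4-8 (0.17), against 11.5% of all probes. The lowest adjusted p was 0.269, for Krt12, the corneal keratin, which read 10.20, 10.45, 9.19, 9.01 and 9.67 in Tat+/Meth and 10.91, 10.64, 10.55, 10.60 and 10.37 in Tat+/Sal. Krtap10-10 had a log2 fold change of -0.0077 (standard error 0.18, adjusted p = 0.993, limma). Krtap19-5 had -0.57 (standard error 0.35, adjusted p = 0.553, limma) through its brighter probe.

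Tat alone made no difference that passed either. Here Tat-/Sal lay on slide 2 and Tat+/Sal on slide 3, and only the Tat+/Meth arrays link these slides. In Tat+/Sal against Tat-/Sal no probe was called by limma or by the methods' t-test, where 0.0444% of all probes were called by limma. At an unadjusted p under 0.05 there were 2, for Krtap4-1 (-0.58) and Krtap9-1 (-0.26), against 16.6% of all probes. In Tat+/Meth against Tat-/Sal no probe was called by either test, and over all probes 0.00317% were called by limma. At an unadjusted p under 0.05 there were 2 here as well, for Krt12 (-0.68) and Krt1 (0.37), against 6.31% of all probes. All log2 fold changes of the 43 probes in these 2 comparisons lay between -0.68 and 0.51.

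The test of whether the effect of Meth differed between Tat+ and Tat- mice called 20 probes, 12 Krtap and 7 keratin probes with a more positive effect in Tat+ mice and 1 keratin probe with a more negative one. Over all probes 12.4% were called, 11.7% more positive and 0.749% more negative. The difference was 4.69 (standard error 0.25, adjusted p = 4.03e-10, limma) for Krtap10-10 and 6.79 (standard error 0.50, adjusted p = 1.02e-08, limma) for Krtap19-5. For Krt16 it was 2.84 (standard error 0.43, adjusted p = 4.37e-05, limma). The probe with the opposite sign was that of Krt12, at -1.10 (standard error 0.38, adjusted p = 0.0321, limma). The call for Krt12 was lost under 9 of 30 other settings, with adjusted p between 0.0110 and 0.198 and a difference between -1.33 and -0.61 over all of them. In 5 of the 9 a single array was left out (Tat-/Meth replicate 1, Tat-/Sal replicate 4, Tat+/Meth replicate 3 or 4, or Tat+/Sal replicate 1), and the other 4 were normexp, no scaling, no filter and slide as a random block.

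Within the slides that held 2 groups the members stayed close. On slide 2 Tat+/Meth minus Tat-/Sal lay between -0.70 and 0.77 over the 43 probes. On slide 3 Tat+/Meth minus Tat+/Sal lay between -1.27, for Krt12, and 0.58. The Tat+/Meth arrays of slide 3 differed from those of slide 2 by up to 1.17, for Krtap19-5. No group spans slide 1 and another slide.

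Among the 15 arrays of slides 2 and 3, one stood out for the probes called lower in Tat-/Meth. Tat+/Sal replicate 4 held the highest of the 15 values for 8 of those 19 probes, for Krt16, Krt73, Krt79, Krt86, Krtap10-10, both probes of Krtap19-5 and a probe of Krtap5-5. For Krt86 it read 10.75 where the other 4 Tat+/Sal arrays read 8.83, 8.74, 8.90 and 9.60. It held the highest value for 3 of the other 24 tested probes. In 15 of the 19 called probes all 5 Tat-/Meth values lay below all 15 others, the exceptions being Krt2, Krtap1-4, Krtap16-3 and Krtap26-1. The 19 were picked as lower on these same Tat-/Meth arrays, so this count is no separate support. The same count over all called probes is not given here.

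Genes of hair and epidermis outside the keratins, and families not known from brain, showed where the keratins stand. Of 25 tested probes of other hair and epidermis genes 8 were called lower in Tat-/Meth against Tat-/Sal and none higher, and of 143 tested probes of olfactory receptors 98 were lower and none higher. Of 7 tested beta-defensin probes 1 was lower. Of the 12 skin and hair keratinocyte markers with a probe, 5 were above background on all arrays and 4 on none, and 5 of the 12 are keratins already described. Each marker was read through its brightest probe. Of the other 7, Trp63, Lor and Tchh were above background on all 20 arrays, with Tat-/Meth means of 13.15, 11.52 and 9.44. Ivl, Dsg3, Hoxc13 and Foxn1 were above background on none. A second Trp63 probe had group means of 4.38 to 4.74 and was above background on 5 of the 20 arrays. A second Ivl probe was above background on 1. The summed signal of the 7 brightest probes, on log2, was 13.5 to 13.7 in Tat-/Meth and 13.2 to 13.7 in the other groups. With the keratins it was 14.3 to 14.4 and 13.9 to 14.3, and that of the striatal neuron markers 19.9 to 20.0 and 19.9 to 20.3. The part of skin, hair or another tissue in the signals was not tested.

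**Figure D4:**
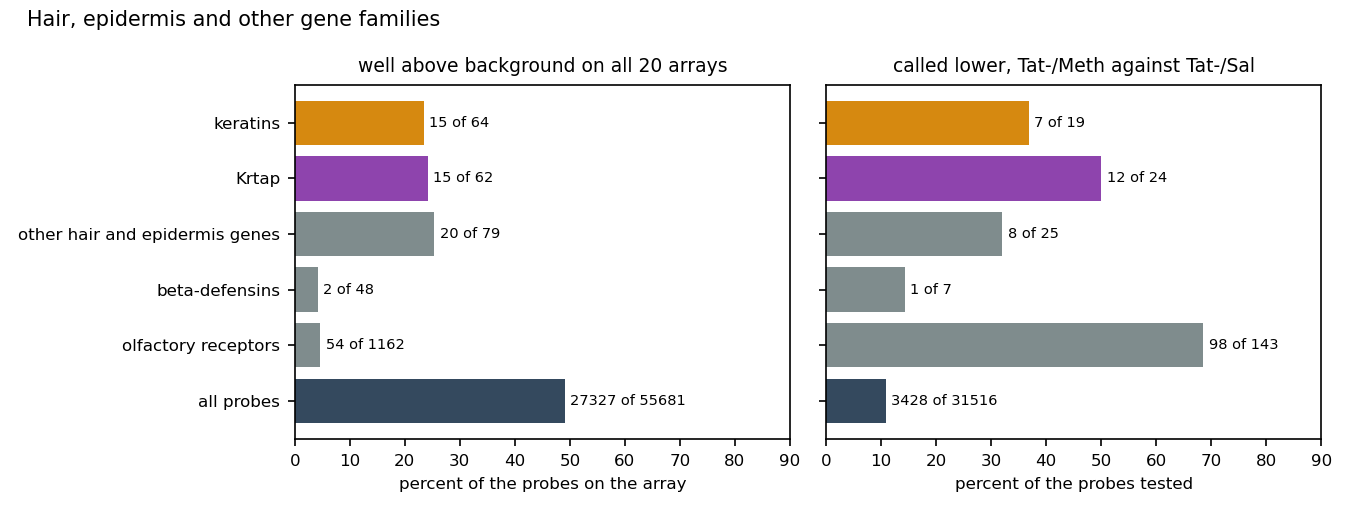
Percent of probes well above background on all 20 arrays (left) and percent of tested probes called lower in Tat-/Meth against Tat-/Sal (right), with the counts beside each bar, for keratins, Krtap genes, 3 other gene lists and all probes. Krtap probes reach 12 of 24 on the right and olfactory receptors 98 of 143, against 3428 of 31516 overall.

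The Krtap genes called lower were spread over their gene clusters, while the called keratin genes lay mostly on chromosome 15. Over all probes tested 10.9% were called lower, and 5.61% of those with a gene symbol. Of the 26 keratin genes on chromosome 15, where the type II genes lie, 6 of 8 tested genes were called. Of the 27 keratin genes on chromosome 11, where the type I genes lie, 1 of 9 was called. Of the Krtap genes, 3 of 7 tested were called on chromosome 11, 3 of 5 on chromosome 16, 3 of 5 on chromosome 7 and 1 of 2 on chromosome 10. By the start of the probe name, 15 of the 19 called probes and 32 of the 43 tested probes began with A_55. Over all tested probes 10.2% of those with that prefix were called lower, 4.18% of those with A_51, 11.2% of those with A_66 and 23.5% of those with A_30.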

How the data were processed

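Per the labels, total RNA was labelled with Cy3; the authors deposited 1 scanner table for each of 20 arrays, with intensity per spot as written by Agilent Feature Extraction 10.7.3.1 (background-subtracted processed signal, and a flag for spots well above background). The deposited value table holds, for nearly all probes, the background-subtracted intensity plus a constant per array, and served as an alternative. The study's methods name another dye, array format and scanner software than the labels and the deposited tables, and the deposited tables were followed.

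Outlier-flagged spots were left out (4278 over all arrays), spots of a probe were averaged on log2, and arrays were brought to a common 75th percentile. Groups came from the sample titles and slides from the array barcodes. Accessions were matched to RefSeq (GRCm38.p6, names and order only) for 27650 of 55681 probes. Probes with values on at least 3 arrays of each group and a group mean of at least 6 were fitted in limma 3.58.1 (R 4.3.3) with 4 group means, adjusted over all 31516 probes tested by Benjamini-Hochberg, and called at an adjusted p under 0.05 and above 2-fold. On simulated data of this design the script was tested before use. Python 3.11.15 with pandas did the rest.

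A probe well above background on no array of a group got a bound. Genes named are the 6 per family with the brightest probe, the 6 per family with the largest called differences without overlap, 3 the study lists, a list of keratins with known roles, genes whose probes disagree and those nearest the fold limit. The members and lists were chosen with earlier results of these data known. P-values measure the spread between mice of a group on the slides used. The number of arrays limits the precision. Background correction, scaling, filters, slide, pairing, test and single arrays were varied.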

Additional observations from a re-analysis of the deposited data

Results flagged for a closer look

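In single probes of the named genes, 7 values stood apart from the other 4 of their group by the gap to the nearest of them, of 140 groups looked at, and chance flags about 1 in 20 groups. They were Krt10 in Tat+/Meth replicate 5 (10.76, the others 10.31 to 10.41), Krt14 in Tat-/Meth replicate 5 (6.96, the others 5.12 to 5.56), Krt16 in Tat+/Meth replicate 4 (12.68, the others 11.88 to 12.10), Krt31 in Tat-/Meth replicate 5 (9.12, the others 7.91 to 8.12), Krt73 in Tat+/Sal replicate 4 (10.80, the others 10.08 to 10.20), Krtap19-5 in Tat-/Meth replicate 2 (7.24, the others 5.70 to 5.97) and Krtap20-2 in Tat+/Sal replicate 3 (6.94, the others 5.83 to 6.12). For 20 probes the effect of Meth differed between mice with and without Tat by the test of the difference itself, as described above. The Tat-/Meth arrays of slide 1 enter all 20. For Krt12 the log2 fold change of Meth against Sal was -0.91 in Tat+ mice and 0.19 in Tat- mice, neither called.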

How the results depend on the processing

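No alternative made a call in Tat+/Meth vs Tat+/Sal, Tat+/Sal vs Tat-/Sal or Tat+/Meth vs Tat-/Sal, and leaving out single arrays gave 0 to 0. In Tat-/Meth vs Tat-/Sal the 19 calls became 32 without a filter on signal (29 lower, 3 higher) and 12 at an adjusted p under 0.01 and 3-fold, and 18 to 20 without single arrays. In Tat+/Meth vs Tat-/Meth the 19 became 29 without the filter, and 19 to 21 without single arrays. In the test of the difference the 20 became 13 at the stricter limits, and 17 to 22 without single arrays. With normexp the first comparison had 10 lower and 3 higher (Krt6b, Krt32 and Krtap3-1), 13 in all. That no probe was called higher also depended on other choices. The 3 without the filter were Krt6b, Krt20 and Krt25. Krt6b was called higher with median scaling, the deposited value table and the filter on probes well above background. Without Tat-/Meth replicate 1 Krt6b and Krtap3-1 were, without replicate 4 Krt6b and Krt13, and without replicate 3 or 5 Krtap3-1. The median log2 fold change over all probes, 0.10, was 0.28 with normexp, 0.22 with median scaling and -0.33 without scaling.

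Single genes were followed for a named list only, which leaves out Krtap1-4 and Krtap26-1. Among the listed genes the directions that turned were all of differences not called. Without scaling the log2 fold change in Tat-/Meth vs Tat-/Sal was -0.19 and -0.080 for the probes of Krt222, -0.34 and -0.14 for Krt10, -0.21 for Krt18, -0.23 for Krt12, -0.30 for Krt31 and -0.28 for Krtap20-2. With normexp it was 0.036 for Krtap5-5 (A_55_P2098150) and 0.17 for Krtap20-2 (A_55_P2092475), the latter 0.027 with quantile normalization. With median scaling it was 0.059 for Krt9 and 0.082 for Krtap4-8. Without single arrays it ran from -0.16 to 0.092 for Krt9 (turned without Tat-/Meth replicate 5), -0.097 to 0.21 for Krt31 (the same array), -0.042 to 0.33 for Krt12 (Tat-/Meth replicate 1) and -0.090 to 0.013 for Krtap4-8 (Tat-/Sal replicate 5). The call for Krtap16-3 was lost without Tat-/Meth replicate 1 (-0.98) or 4 (-0.80) or Tat-/Sal replicate 3 (-0.94), and, just under 2-fold, without Tat-/Meth or Tat-/Sal replicate 2. Calls were also lost for Krt2 with quantile normalization and the deposited value table, for Krtap5-4 with that table, for Krtap5-2 with median scaling, and for Krtap16-3 with all of these. The cause of these shifts was not tested.

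Samples with the same replicate number deviated together in 9 of 30 pairs (correlation above 0.1), against 20 of 120 pairs with other numbers. The median correlations were 0.057 and -0.010. The numbers were not taken to pair the mice, and a block by number was tried as an alternative. With the replicate block the calls were 19, 19 and 19 in the 3 comparisons with Tat-/Meth and 0 in the others. Slide as a fixed block could not be fitted for comparisons with Tat-/Meth, and gave 0 in the others. Signal over background limits the 83 untested probes.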
